A study of Mus musculus with 10 samples.

Results

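The genes described here are the keratins of simple epithelia, Krt7, Krt8, Krt18 and Krt19, together with Vim, Gfap and Nes, which encode vimentin, glial fibrillary acidic protein and nestin. They were chosen by name as intermediate-filament genes, and each of the 7 symbols matched a single gene among the 48709 genes in the deposited tables. Their RNA was measured in 10 libraries of utricular supporting cells, the non-sensory cells that surround the hair cells of this vestibular organ, from mice at postnatal day 21. Utricles were cultured for 5 days with 10 µM TRULI in 0.1% DMSO, or with 0.1% DMSO alone as the control, and in the withdrawal experiment either treatment was followed by 5 days without any. TRULI inhibits Lats1 and Lats2, the kinases that phosphorylate the transcriptional coactivator Yap and keep it out of the nucleus. All 4 groups came from mice that carry an Lfng-EGFP reporter, and the cells were collected by fluorescence-activated sorting for that reporter, so that every library depends on Lfng-driven fluorescence in a sorted population that can hold other cells. By sample label there were 3 control and 3 TRULI libraries at 5 days, and 2 control and 2 TRULI libraries after withdrawal. The methods call the replicates biological but do not say which animals or cultures each came from, so the p-values below measure the spread between these libraries. Because these are bulk samples, fewer cells of a type and less RNA per cell cannot be told apart.

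For 4 of the 10 libraries the name under which the table was deposited gives another condition than the sample label. Labels call a first pair 5-day TRULI replicates 1 and 2, where the deposited names have control withdrawal replicates 1 and 2. A second pair carries the labels of control withdrawal replicates 1 and 2 and the names of 5-day TRULI replicates 2 and 3. What the labels number TRULI replicate 3 at 5 days is named TRULI replicate 1 of that same condition, and the 3 controls at 5 days and both TRULI withdrawal libraries have 1 condition under either source. Every comparison is therefore given by sample label, which is the main grouping, and by deposited name. At 5 days the log2 fold changes are also given without those 4 libraries, whereas after withdrawal no control would remain without them.

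Intermediate filaments are built from proteins that share a central rod, and different cell types use different members of the family. Keratins assemble only as pairs of a type II and a type I chain, and Krt8 with Krt18 is the pair found in most simple epithelia. Krt7, of type II, and Krt19, of type I, are added in particular epithelia such as ducts. Vimentin is the type III filament of mesenchymal and many cultured cells, GFAP its relative in astrocytes and some other glia, and nestin is a filament protein best known from neural progenitors. In the inner ear, keratin filaments are found in the supporting cells and other non-sensory epithelial cells.

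The tables summed to between 2463872 and 6255149 counts per library, and a count of 3 corresponded to between 0.480 and 1.22 CPM (counts scaled to a common library size), a limit that covers counting error only. Mitochondrially encoded RNA took 2.09% to 3.52% of the counts in 4 libraries, both TRULI withdrawal libraries and those labelled TRULI replicates 1 and 2 at 5 days, and 14.2% to 28.2% in the other 6. These 4 libraries are the ones that the deposited names place in the withdrawal experiment. Lfng, whose reporter was used for the sort, was at 21.6 to 104 CPM in the 4 and at 294 to 544 CPM in the 6. All 12 listed markers of supporting cells were detected, with a summed level of 4721 to 14115 CPM. The 10 hair-cell markers summed to 33 to 900.0 CPM, the 9 stromal markers to 17.8 to 101 CPM, the 6 Schwann-cell and glial markers to 52.5 to 151 CPM and the 4 endothelial markers to 0 to 3.08 CPM. The macrophage list summed to 0.907 to 18.6 CPM, nearly all of it Cd68, with Adgre1 and C1qa at 0 in every library. The melanocyte list summed to 0.366 to 14.3 CPM, nearly all of it Pmel, with Tyr and Mlana at 0, and the dark-cell list to 107 to 195 CPM from Slc12a2 and Kcnq1, with Kcne1 at 0. Of the 4 muscle markers, Myod1 was at 15.1 to 90.9 CPM in the 4 libraries and at 0 to 0.386 CPM in the 6, while Myog was at 0 in all libraries and Acta1 and Myh3 had at most 5 and 3 counts.

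Krt8 (ENSMUSG00000049382) and Krt18 (ENSMUSG00000023043) are neighbours on chromosome 15 of GRCm38. Krt8 spans 101996698 to 102004482 on the minus strand and Krt18 spans 102028180 to 102032027 on the plus strand, 23697 bases apart. Krt7 (ENSMUSG00000023039) lies on the same chromosome at 101411043 to 101430313. Krt19 (ENSMUSG00000020911) spans 100140810 to 100148665 of chromosome 11, and Gfap (ENSMUSG00000020932) 102887336 to 102900912 of that chromosome. Vim (ENSMUSG00000026728) spans 13573927 to 13582826 of chromosome 2 and Nes (ENSMUSG00000004891) 87971078 to 87980451 of chromosome 3. All 7 are annotated as protein-coding.

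The upstream sequences of the partner genes Krt8 and Krt18 are shown because these 2 RNAs kept a nearly fixed ratio in some libraries and not in others, as described below. Each is the stretch of the RefSeq promoter window (GRCm38.p6) that lies outside all annotated exons, read 5′ to 3′ on the strand of the gene, chr15:102004483-102004592 for Krt8 and chr15:102027966-102028179 for Krt18.
Krt8: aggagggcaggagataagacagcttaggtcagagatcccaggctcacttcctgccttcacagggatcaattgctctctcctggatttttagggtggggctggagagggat
Krt18: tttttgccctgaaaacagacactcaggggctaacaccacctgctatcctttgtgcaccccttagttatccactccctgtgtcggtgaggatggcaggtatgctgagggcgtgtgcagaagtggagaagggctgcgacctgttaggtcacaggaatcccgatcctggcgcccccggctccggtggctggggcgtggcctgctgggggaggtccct
The TEAD core GGAATG, to which the partners of Yap bind, and the AP-1 site TGANTCA were searched on both strands of the 250 bases before the RefSeq start of each gene. Neither was present in the windows of Krt7, Krt8, Krt18, Vim, Gfap or Nes, the 6 members with a RefSeq window. The windows of Krt7, Vim and Gfap lie within the gene spans given above, and those of Krt8, Krt18 and Nes overlap them in part. For Krt7, Vim and Gfap, sequence upstream of those spans was therefore not searched. Among 27025 promoters, 12.6% held the first motif and 6.87% the second. In a search added after those, the TATA box TATAAA, present in 13% of promoters, was found in the window of Vim alone, and the GC box GGGCGG, present in 32.9%, was found 4 times in that of Krt7 and 2 times in that of Nes. No letters are in capitals above because none of the 4 motifs occurs in the windows of Krt8 or Krt18.

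The libraries of sorted supporting cells held Krt8, Krt18 and Vim RNA at levels far above the other members. As FPKM, a level per transcript length computed here over protein-coding genes, the mean over the 10 libraries was 422 for Vim, 356 for Krt18 and 333 for Krt8. They stood at the 98.9th, 98.7th and 98.7th percentiles of protein-coding genes. The FPKM of Krt8 ranged from 67.5 to 673, that of Krt18 from 221 to 527 and that of Vim from 57.9 to 1057, so their order is not set apart by the spread between libraries. Krt8 was above Krt18 in 6 of 10 libraries and Krt18 above Vim in 6 of 10.

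Krt19 followed at a mean FPKM of 42.2 (range 15.3 to 65.8), below Krt8, Krt18 and Vim in 10 of 10 libraries. Krt7 and Nes had mean FPKM of 2.25 and 1.33 with overlapping ranges, and Nes was the higher in 7 of 10 libraries. They stood at the 51.8th and 47.7th percentiles of all annotated protein-coding genes, where even Gfap stood at the 35.7th. The mean of Krt7 rests largely on 1 library at 17.6 FPKM, and the median of Krt7 was 0.345. Gfap had at most 5 counts in any library and none in 5 of the 10, a mean FPKM of 0.124. The per-length values of Vim and Krt7 also depend on the transcripts to which reads were assigned, since the deposited effective length varied between libraries from 575 to 821 bases for Vim and from 510 to 3861 for Krt7, against 1570 to 1586 for Krt8 and 1165 to 1181 for Krt18.

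**Figure D1:**
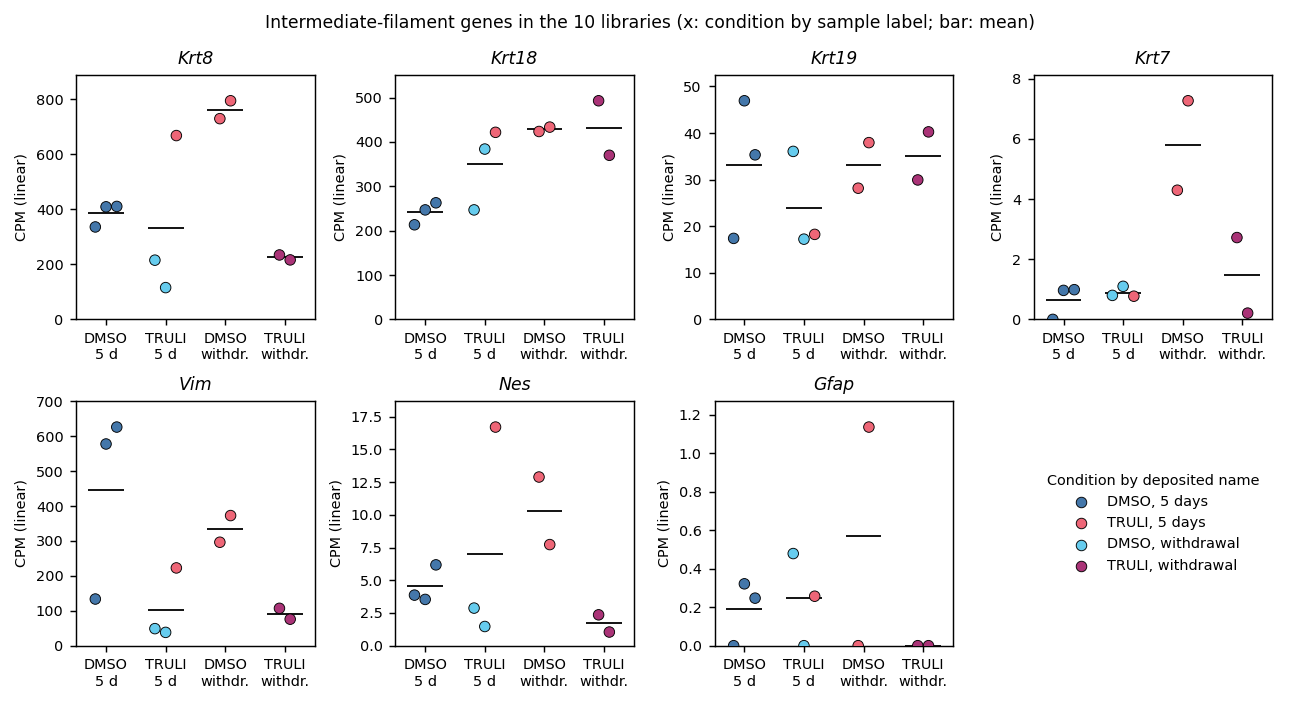
Level of each intermediate-filament gene in CPM on a linear axis, 1 point per library, arranged by the condition in the sample label with the group mean as a bar and coloured by the condition in the deposited name. Krt8 is highest, 668 to 794 CPM, in the 3 libraries deposited as TRULI at 5 days, 2 of which carry the label of withdrawal controls.

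The first comparison asks what TRULI does to these genes after 5 days of treatment. By sample label, none of the 7 members was called changed, that is, reached an adjusted p under 0.05 by the quasi-likelihood method of edgeR while differing by more than 1 on the log2 scale. SE stands for the standard error of a log2 fold change. Over all tested genes 0.00903% were called (1 of 11071), with 1495 genes at an unadjusted p under 0.05, Vim the only member among them, and DESeq2 called 285 genes (2.57%) and no member. Krt8, Krt18, Krt19, Vim and Nes passed the filter on low counts, and Krt7 and Gfap did not. No member was separated between the labelled groups, where 18.1% of tested genes were.

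Krt8 was at 336, 409 and 410.3 CPM in control replicates 1 to 3. In the libraries labelled TRULI replicates 1 to 3 it was at 215, 115 and 668 CPM, so that replicates 1 and 2 lay below every control and replicate 3 above. The log2 fold change was -0.21 (SE 0.60, adjusted p = 0.884, edgeR). Grouped by deposited name, the TRULI libraries held 668, 729 and 794 CPM, all above the controls. The log2 fold change was then 0.94 (SE 0.20, adjusted p = 0.0339, edgeR), a 1.92-fold difference that was past the threshold on p and under the threshold on size.

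Krt18, the type I partner, was at 213, 247 and 263 CPM in the controls and at 247, 384 and 422 CPM in the libraries labelled TRULI. The groups touched at 247 CPM, and the log2 fold change was 0.52 (SE 0.35, adjusted p = 0.499, edgeR). The libraries deposited as TRULI held 422, 424 and 434 CPM, all above the controls and close to each other. The log2 fold change in that grouping was 0.84 (SE 0.20, adjusted p = 0.0445, edgeR), a 1.79-fold difference. By deposited name, both partners of the Krt8 and Krt18 pair were thus at an adjusted p under 0.05, as were 3.28% of all tested genes, and neither was among the 3.07% (354 of 11529) that were also beyond 1 on the log2 scale.

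With the number in the deposited name as a replicate block, the log2 fold changes were 0.94 for Krt8 (adjusted p = 0.0027) and 0.85 for Krt18 (adjusted p = 0.00577) in edgeR's test, still under the threshold on size. In the fit without the block, leaving out each of the 6 libraries in turn gave adjusted p-values of 0.0633 to 0.133 for Krt8 and 0.0691 to 0.177 for Krt18, with log2 fold changes of 0.85 to 0.99 and 0.76 to 0.88. Without the 4 libraries of doubtful condition, 1 TRULI library remained beside the 3 controls, and the log2 fold changes were 0.80 for Krt8 (adjusted p = 0.659) and 0.81 for Krt18 (adjusted p = 0.689) in edgeR's test, with the spread of the other groups standing in for that of the lone library and 0.0376% of genes called.

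Vim varied most among the controls, at 134, 578 and 626 CPM. The libraries labelled TRULI were at 48.8, 38.1 and 223 CPM, the last of them between control replicate 1 and the other two. The log2 fold change was -2.10 (SE 0.79, adjusted p = 0.344, edgeR), not past the threshold. By deposited name the TRULI libraries were at 223, 296 and 373 CPM, inside the range of the controls, with a log2 fold change of -0.56 (SE 0.45, adjusted p = 0.595, edgeR). The call on Vim by sample label depends on the library labelled TRULI replicate 3. Without it, Vim was called lower at -3.42 (adjusted p = 0.0124) and Krt8 at -1.29 (adjusted p = 0.029) in edgeR's test, among 18.8% of tested genes that were then called. Without the filter on low counts Vim was called as well, at -2.10 (adjusted p = 0.00201), where 3.2% of genes were.

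Nes was at 3.86, 3.54 and 6.18 CPM in the controls. It was at 2.87, 1.47 and 16.7 CPM in the libraries labelled TRULI, a log2 fold change of 0.63 (SE 0.91, adjusted p = 0.751, edgeR) with replicates on both sides of the controls. The libraries deposited as TRULI held 16.7, 12.9 and 7.73 CPM, all above the controls, a log2 fold change of 1.46 (SE 0.46, adjusted p = 0.133, edgeR). Nes, Krt8 and Krt18 were the 3 members separated from the controls by deposited name, and 21.3% of tested genes were.

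Krt19 was at 17.4, 46.9 and 35.3 CPM in the controls and at 36.1, 17.2 and 18.2 CPM in the libraries labelled TRULI. Its log2 fold change was -0.51 (SE 0.48, adjusted p = 0.623, edgeR) by sample label. By deposited name the TRULI libraries were at 18.2, 28.2 and 37.9 CPM, and the change was -0.23 (SE 0.37, adjusted p = 0.831, edgeR). Krt19, the type I keratin added to the simple pair in some epithelia, thus overlapped between the groups in both groupings.

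Krt7 had 0, 3 and 4 counts in the controls and 5, 3 and 3 counts in the libraries labelled TRULI, close to the 3-count limit of detection. The libraries deposited as TRULI had 3, 18 and 32 counts, or 0.771, 4.30 and 7.27 CPM, with the lowest of them within the range of the controls. Without the filter, the log2 fold change by deposited name was 2.55 (SE 0.90, adjusted p = 0.0751, edgeR). Gfap had between 0 and 5 counts in each library, too few to show a difference at this depth.

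Markers of other cells differed between these groups too. Hair-cell markers summed to 141 to 225 CPM in the controls, to 33 to 729 CPM in the libraries labelled TRULI and to 173 to 729 CPM in those deposited as TRULI. A list of 7 epithelial genes summed to 5254 to 6503 CPM in the controls, to 2189 to 7794 CPM in the libraries labelled TRULI and to 2189 to 3894 CPM in those deposited as TRULI. Epcam made up most of each sum, and the genes did not move together. By deposited name 3 of the 7 were higher with TRULI and 4 lower. Cdh1, for example, was at 98.9 to 141 CPM in the controls and 140 to 197 CPM in the libraries deposited as TRULI. The supporting-cell markers summed to 9867 to 14115 CPM in the controls, to 4721 to 8280 CPM in the libraries labelled TRULI and to 8280 to 11125 CPM in those deposited as TRULI. Of these 12 markers, 1 was higher and 11 were lower with TRULI by sample label, and 4 were higher and 8 lower by deposited name. The part of these differences in the values of Krt8, Krt18 and Nes was not tested.

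**Figure D2:**
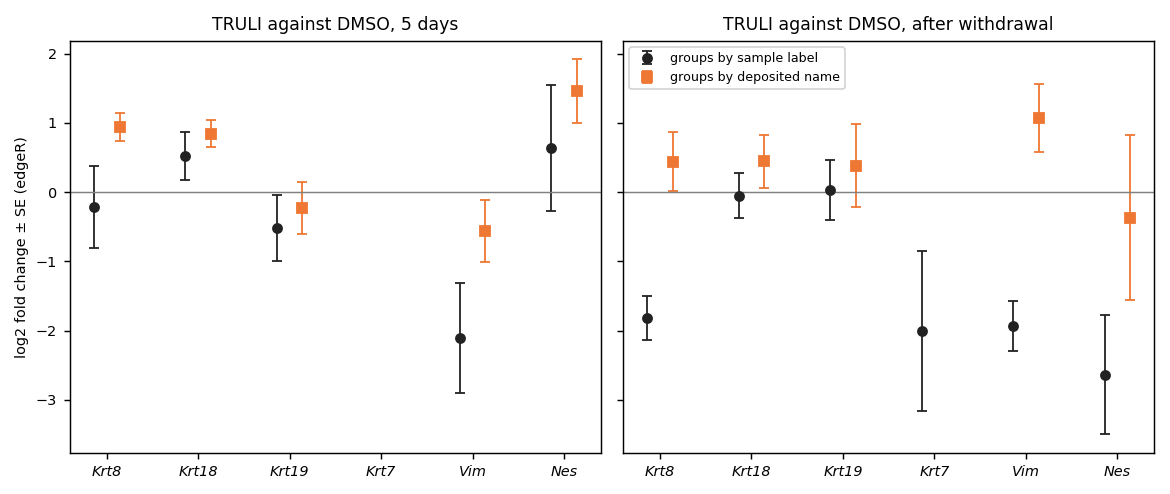
Log2 fold change of TRULI over control from edgeR with its standard error as the bar, at 5 days (left) and after withdrawal (right), with circles for groups by sample label and squares for groups by deposited name. Krt8 moves from -0.21 to 0.94 at 5 days and from -1.82 to 0.44 after withdrawal when the deposited name gives the condition, and genes removed by the filter on low counts have no point.

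The second comparison asks whether any difference remained 5 days after TRULI was withdrawn. By sample label, Krt8 and Vim were called lower in the TRULI libraries, 2 of the 6 members tested, where 2.07% of all tested genes were called (253 of 12242, of which 130 were lower). Krt7, Krt8, Vim and Nes were each lower in both TRULI libraries than in both controls, and 57.7% of the tested genes were separated in this way. By deposited name, none of the 5 members tested was called and 0% of tested genes were (0 of 11568 by edgeR, with 532 at an unadjusted p under 0.05, and 49, or 0.424%, by DESeq2). No member had an unadjusted p under 0.05 by edgeR in that grouping without a replicate block, and Vim alone did with the block (adjusted p = 0.874, edgeR) and by DESeq2.

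Krt8 was at 234 and 216 CPM in the TRULI withdrawal libraries and at 729 and 794 CPM in the labelled controls, a log2 fold change of -1.82 (SE 0.32, adjusted p = 0.0445, edgeR), or 3.53-fold lower. The libraries deposited as withdrawal controls held 215 and 115 CPM, so that Krt8 was then 0.44 higher on the log2 scale after TRULI (SE 0.42, adjusted p = 0.9998, edgeR). The direction for Krt8 thus turned with the source of the condition.

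Vim was at 107 and 75.9 CPM after TRULI withdrawal and at 296 and 373 CPM in the labelled controls. The log2 fold change was -1.93 (SE 0.36, adjusted p = 0.0463, edgeR), or 3.81-fold lower. Against the libraries deposited as controls, at 48.8 and 38.1 CPM, Vim was 1.07 higher (SE 0.49, adjusted p = 0.9998, edgeR). In that grouping Krt8 and Vim were the members with both TRULI libraries above both controls, as on one side or the other were 28.8% of tested genes.

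Both labelled calls rest on each control library. Without labelled control replicate 1 the adjusted p was 0.203 for Krt8 and 0.223 for Vim, and without replicate 2 it was 0.178 and 0.240 in edgeR's test, with the log2 fold changes between -1.78 and -2.08 and with 0.0609% and 0.136% of tested genes called. With all 10 libraries in 1 fit, the adjusted p was 0.195 for Krt8 and 0.235 for Vim, and no gene was called by edgeR. In the labelled comparison the TRULI libraries had 2.09% and 3.52% mitochondrial RNA and the controls 25.4% and 14.2%. With the mitochondrially encoded RNAs removed before scaling, the log2 fold changes were -1.84 for Krt8 and -1.95 for Vim, each still called among 1.75% of genes. Both were also called with the label's number as a replicate block (10.4% of genes), with DESeq2 (12.1%) and without the filter on low counts (9.07%).

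Krt18, the partner of Krt8, was not called, and the difference between the partners was not tested. It was at 493 and 370.0 CPM after TRULI withdrawal and at 424 and 434 CPM in the labelled controls, a log2 fold change of -0.05 (SE 0.33, adjusted p = 0.939, edgeR). By deposited name the controls held 247 and 384 CPM and the change was 0.44 (SE 0.39, adjusted p = 0.9998, edgeR), with 1 TRULI library inside the range of the controls.

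Nes was at 2.36 and 1.04 CPM after TRULI withdrawal. The labelled controls held 12.9 and 7.73 CPM, a log2 fold change of -2.64 (SE 0.86, adjusted p = 0.122, edgeR), and the libraries deposited as controls 2.87 and 1.47 CPM, a change of -0.37 (SE 1.20, adjusted p = 0.9998, edgeR). Nes was separated from the labelled controls and overlapped the controls by name.

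Krt19 was at 29.9 and 40.3 CPM after TRULI withdrawal, 28.2 and 37.9 CPM in the labelled controls and 36.1 and 17.2 CPM in the controls by name. Its log2 fold changes were 0.03 (SE 0.44, adjusted p = 0.975) and 0.38 (SE 0.60, adjusted p = 0.9998) in edgeR's test, the smallest in size of the tested members by sample label. Krt7 had 15 and 1 counts after TRULI withdrawal, 18 and 32 in the labelled controls and 5 and 3 in the controls by name, and by sample label its log2 fold change was -2.00 (SE 1.16, adjusted p = 0.322, edgeR). Leaving out TRULI replicate 1, the one with 15 counts, added Krt7 (-4.68, adjusted p = 0.0273) and Nes (-3.35, adjusted p = 0.0101) to the called members in edgeR's test, among 24.4% of tested genes. Gfap had no counts in either TRULI withdrawal library, which allows up to 0.555 and 0.573 CPM.

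Among the marker lists, the supporting-cell sum was 6033 to 6701 CPM after TRULI withdrawal, 9975 to 11125 CPM in the labelled controls and 4721 to 7620 CPM in the controls by name. Its 12 genes did not move together, with 4 higher and 8 lower after TRULI by sample label, and 7 and 5 by deposited name. By sample label Slc1a3 and Lfng were called lower and none of the 12 was called higher, where 2.07% of tested genes were called. By deposited name none was called, where 0% of tested genes were. Slc1a3 was at 558 and 791 CPM after TRULI withdrawal and at 3448 and 3890 CPM in the labelled controls. Lfng was at 104 and 67.8 CPM and at 526 and 294 CPM in the same groups. Sox9, not called, was at 928 and 818 CPM and at 563 and 696 CPM. The hair-cell sum was 131 and 900.0 CPM in the 2 TRULI withdrawal libraries, 173 to 491 CPM in the labelled controls and 33 to 40.3 CPM in the controls by name. Schwann-cell and glial markers, which mark cells that can express Gfap or Nes, summed to 79.7 to 151 CPM, 69.5 to 76.6 CPM and 68.9 to 90.8 CPM. Their part in the values above was not tested.

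The ratio of the obligate partners shows how differently Krt8 and Krt18 behaved. In the 6 libraries with 14.2% to 28.2% mitochondrial RNA, which the deposited names place at 5 days, there were 1.56 to 1.83 counts of Krt8 for each count of Krt18. The 3 controls had ratios of 1.57, 1.66 and 1.56, and the 3 libraries deposited as TRULI at 5 days 1.58, 1.72 and 1.83. In the other 4 libraries the ratio was 0.871 and 0.301 in those labelled TRULI replicates 1 and 2 at 5 days, and 0.475 and 0.584 in the TRULI withdrawal libraries.

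Krt8 was one of the genes separated between these sets, as were 23.7% of the 12841 genes tested over all libraries, and Krt18 was not. Krt8 was at 115 to 234 CPM in the 4 libraries and at 336 to 794 CPM in the 6, without overlap, whereas Krt18 was at 247 to 493 CPM and 213 to 434 CPM. Per transcript length, the ratio of Krt8 to Krt18 was 1.16 to 1.36 in the 6 libraries and 0.223 to 0.647 in the 4. Reads that belong to the Krt8 pseudogene Krt8-ps could be shared with Krt8, and it held 0 to 16 counts per library against 315 to 3495 for Krt8.

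By sample label the mean ratio at 5 days was 1.60 ± 0.05 (SD, n = 3) in the controls and 0.918 ± 0.643 (SD, n = 3) with TRULI, which overlapped. After withdrawal it was 1.78 ± 0.08 (SD, n = 2) in the labelled controls and 0.529 ± 0.077 (SD, n = 2) with TRULI. By deposited name the means were 1.60 ± 0.05 and 1.71 ± 0.12 (SD, n = 3 each) at 5 days, and 0.586 ± 0.404 and 0.529 ± 0.077 (SD, n = 2 each) after withdrawal, and the TRULI and control values overlapped at both times. The 4 libraries with low ratios are the 4 with low mitochondrial share and low Lfng. By deposited name they are also the 4 withdrawal libraries, whereas by sample label they are 4 of the 5 TRULI libraries from both times. What the ratio goes with among these cannot be told apart.

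**Figure D3:**
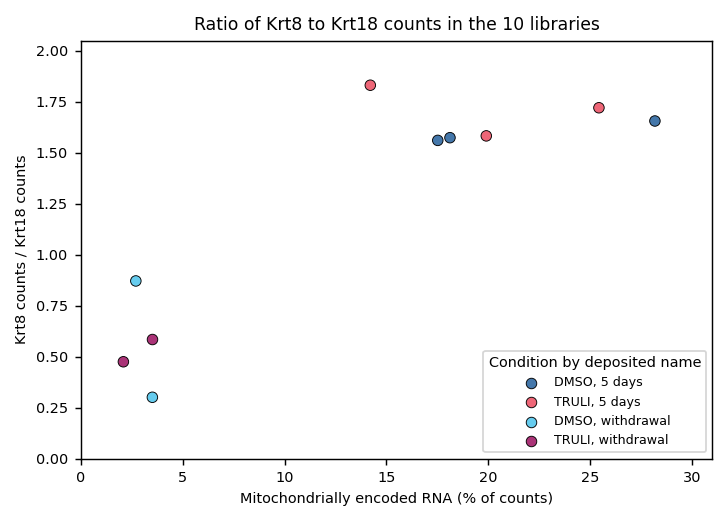
Ratio of Krt8 to Krt18 counts against the share of mitochondrially encoded RNA in percent of counts, 1 point per library, coloured by the condition in the deposited name. The 4 libraries under 5% mitochondrial RNA have ratios of 0.301 to 0.871 and the 6 others 1.56 to 1.83.

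Vim and Nes were also split between these sets of libraries. Vim was at 38.1 to 107 CPM in the 4 libraries and 134 to 626 CPM in the 6, and Nes at 1.04 to 2.87 and 3.54 to 16.7 CPM. Krt19 was at 17.2 to 40.3 CPM in the 4 and 17.4 to 46.9 CPM in the 6, which overlapped almost wholly. Of the 6 members tested over all libraries, Krt8, Vim and Nes were thus separated between the sets and Krt7, Krt18 and Krt19 were not, beside 23.7% of all tested genes, so the count is a description of the sets. The sets were defined by the mitochondrial share, not by a condition, and were not tested against each other.

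The third comparison is between the effects, the log2 fold change after withdrawal minus that at 5 days, tested as an interaction over all 10 libraries. No member was called by either grouping, and 0% of tested genes were (0 of 12841 in each, with 874 genes at an unadjusted p under 0.05 using the labels and 1217 using the names, and 46 and 86, or 0.358% and 0.67%, called by DESeq2). At an unadjusted p under 0.05 stood Nes by sample label and Vim by deposited name, 1 member in each, and DESeq2 called neither. By sample label the difference was largest in size for Nes, at -3.27 (SE 1.39, adjusted p = 0.706, edgeR), followed by Krt7 at -2.34 (SE 1.76, adjusted p = 0.877, edgeR) and Krt8 at -1.60 (SE 0.82, adjusted p = 0.786, edgeR). By deposited name it was -1.90 for Krt7 (SE 1.83, adjusted p = 0.794, edgeR), -1.85 for Nes (SE 0.96, adjusted p = 0.568, edgeR), 1.63 for Vim (SE 0.70, adjusted p = 0.499, edgeR) and -0.50 for Krt8 (SE 0.40, adjusted p = 0.734, edgeR). Without the filter on low counts, Vim was called by deposited name at 1.65 (adjusted p = 0.0431, edgeR), where 1.44% of genes were.

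The other keratins were sparse in these libraries. Of 27 other keratins listed, 16 had no count in any library and none of the remaining 11 exceeded 23 counts. Krt5 and Krt14, the pair of basal stratified epithelium, had at most 2 counts and none, respectively. Des, the muscle filament gene desmin, had at most 2 counts, and Prph, the peripherin gene of peripheral neurons, had none. Filament genes outside the keratins that were tested in at least 1 comparison were Nefl, Nefm and Synm and the lamin genes Lmna, Lmnb1 and Lmnb2, with Lmna at 23.6 to 83.8 CPM, Synm at 9.64 to 39.6 CPM and Lmnb2 at 8.36 to 27.1 CPM in every library.

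Of the 39 other filament genes, 5 were tested at 5 days by sample label and 6 by deposited name. After withdrawal 7 and 4 were tested in that order, and 7 under each grouping for the difference between effects. None was called in these fits, where at most 3.07% of all tested genes were. At 5 days the unadjusted p in edgeR's test was under 0.05 for Synm by sample label, as for 1495 of 11071 genes. By deposited name it was so for Lmnb1, Nefl and Synm, beside 1888 of 11529 genes. Nefl, the light neurofilament gene, was at 2.72 to 5.02 CPM in the controls at 5 days and at 43.7, 24.8 and 2.27 CPM in the libraries deposited as TRULI, with a log2 fold change of 2.57 (SE 0.81, adjusted p = 0.131, edgeR). In the libraries labelled TRULI it was at 0.638, 0.366 and 43.7 CPM, the first and second below every control, with a change of 1.89 (SE 1.41, adjusted p = 0.544, edgeR). Synm, which encodes the vimentin partner synemin, was at 9.64 to 17.4 CPM and at 39.6, 23.4 and 30.2 CPM in the same groups, with a change of 1.13 (SE 0.33, adjusted p = 0.106, edgeR), and at 27.0, 32.2 and 39.6 CPM in the libraries labelled TRULI, a change of 1.17 (SE 0.41, adjusted p = 0.335, edgeR). With the number in the deposited name as a replicate block, Nefl and Synm were called higher at 5 days by edgeR, where 6.05% of genes were.

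Genes of filament linkers, which anchor filaments to desmosomes and other structures, and of other filament partners were tested as a list of 18. Of these, 17 were found in the data. None was called by edgeR in any of the 3 comparisons under either grouping, where at most 3.07% of all tested genes were called. At 5 days 2 of 15 tested had an unadjusted p under 0.05 by sample label, Macf1 and Pkp4, as did 1495 of 11071 genes. By deposited name 3 of 15 did, Macf1, Pkp2 and Tchp, beside 1888 of 11529 genes. At 5 days the 15 genes tested had a median log2 fold change of 0.11 in both groupings, beside 0.03 over all tested genes, with 9 of 15 higher in each. Dsp, the desmoplakin gene that ties keratin filaments to desmosomes, was at 57.2 to 81.5 CPM in the controls, at 47.1, 12.1 and 88.4 CPM in the libraries labelled TRULI and at 88.4, 55.4 and 38.2 CPM in those deposited as TRULI.

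Genes that mark epithelial and mesenchymal states were called at 5 days by deposited name. In that grouping, where 3.07% of all tested genes were called, 2 of 7 tested epithelial genes were, Epcam, a cell-adhesion gene, lower at -1.30 (adjusted p = 0.024, edgeR) and Cldn6, a tight-junction gene, higher at 2.10 (adjusted p = 0.0085, edgeR). Of 9 mesenchymal genes, 2 were tested and 1 was called, Fn1, the fibronectin gene, higher at 3.38 (adjusted p = 0.0032, edgeR). By sample label none of either list was called at 5 days. Vim, often read with these genes, was not called in either grouping, and Acta2 had no counts in any library.

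Genes whose level closely followed that of a member were ranked over the 10 libraries by Pearson's r of log2 CPM among 11566 genes. Among the leading matches were Mfsd2a (r = 0.98) and Efhc2 (r = 0.97) for Krt8, Cryab (r = 0.93) for Krt18, Slc26a9 (r = 0.89) and Bmpr1b (r = 0.88) for Krt19, Aurka (r = 0.92) and Tmem131l (r = 0.91) for Krt7, Jmjd8 (r = 0.97) and Hdac6 (r = 0.96) for Vim, and Mme (r = 0.96) and Itgb4 (r = 0.95) for Nes. These are descriptions, the highest of many, over libraries that fall into the 2 sets above and differ between them in mitochondrial share. None of the genes named here was a leading match of more than 1 member.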

How the data were processed

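RNA was sequenced from sorted utricular supporting cells. The authors aligned reads to GRCm38 (mm10) with STAR and deposited, per library, estimated counts (expected counts) with effective lengths and no normalization. The counting program and annotation release are not given in the sources used here. The library kit differs between the methods and the labels. Expected counts were rounded and tested with edgeR 4.0.16 (quasi-likelihood, filterByExpr, TMM scaling, Benjamini-Hochberg adjustment over all tested genes) in R 4.3.3. Calls needed an adjusted p under 0.05 together with a change of more than 1 on the log2 scale, as in the methods. DESeq2 1.42.0, other scalings, no filter, a replicate block, left-out libraries and grouping by deposited name were alternatives. CPM used TMM factors over the 10 libraries, and FPKM used the protein-coding total (GENCODE M21, 48349 of 48709 genes matched). The text names all 7 members, the listed genes that were called or that a comparison turns on, and the top 2 genes by likeness, of which 1 is not reported here. Dsp, Krt5, Krt14, Des and Prph were picked as examples after their values were seen. Members and lists were chosen with earlier results of these data known. No 2 libraries agreed within sampling noise (lowest chi-square per degree of freedom 18.3). By deposited name at 5 days, same-numbered libraries deviated together (correlations 0.416, 0.213 and 0.336), so that these numbers pair the libraries as judged from the data. The test was also run on simulated counts with the same spread for every gene and without the sets of libraries described above. That run cannot speak for groups that mix those sets.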

Additional observations from a re-analysis of the deposited data

How the results depend on the processing

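Several results turned direction with the source of the condition, and the cause was not tested. With groups by deposited name, the log2 fold change of Krt8 at 5 days was 0.94, and 0.94 with the replicate block, 0.93 with DESeq2, 0.94 without mitochondrial RNAs, 0.92 with all 10 libraries in one fit and 0.94 without the filter on low counts. Without the 4 libraries of doubtful condition it was 0.80. After withdrawal, the same 6 settings in that order gave 0.44, 0.50, 0.43, 0.44, 0.42 and 0.44 for Krt8, 0.44, 0.46, 0.43, 0.44, 0.43 and 0.46 for Krt18, and 1.07, 1.06, 1.06, 1.07, 1.05 and 1.07 for Vim. Krt7 after withdrawal was 0.63 in the one fit and 0.64 without the filter. Members called after withdrawal went from 2 to 0 in all 6 of these settings and in the labelled fit of all 10 libraries. Members called without the filter were 1 at 5 days by sample label, and 1 for the difference between effects by deposited name.

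Leaving out 1 library at a time gave 0 to 2 members called at 5 days by sample label, where 0% to 18.8% of tested genes were. The 2 were called in the fit with 18.8%. By deposited name 0 members were called at 5 days, where 0.444% to 3.23% of tested genes were. After withdrawal these fits assume that a lone library varies like the other group, and sizes alone follow here. By sample label the log2 fold changes were -1.29 to 0.21 for Krt8, -0.88 to -0.18 for Krt19 and -1.08 to 1.10 for Nes at 5 days, and -1.89 to -1.78 for Krt8, -0.29 to 0.11 for Krt18, -0.23 to 0.24 for Krt19, -2.21 to -1.73 for Vim, -4.68 to -1.16 for Krt7 and -3.35 to -2.21 for Nes after withdrawal. By deposited name they were 0.85 to 0.99 for Krt8, -0.54 to 0.094 for Krt19 and 1.18 to 1.74 for Nes at 5 days, and 0.06 to 0.94 for Krt8, 0.15 to 0.80 for Krt18, -0.043 to 1.01 for Krt19, 0.79 to 1.28 for Vim, 0.39 to 1.503 for Krt7 and -1.07 to 0.19 for Nes after withdrawal.

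By sample label the same numbers did not pair the libraries at 5 days (correlations -0.148, 0.062 and -0.207). With the label's number as a replicate block, genes called went from 1 to 0 at 5 days and from 253 to 1269 after withdrawal, Nes at 5 days was -0.032, and Krt8 and Vim stayed called after withdrawal. By deposited name the block moved the genes called at 5 days from 354 to 698 and changed no call on a member. DESeq2 called 285 genes at 5 days and 1476 after withdrawal by sample label. The fits by deposited name with all 10 libraries or without the filter were added after the data were seen. Without those 4 libraries the withdrawal comparison could not be run, since no control is left.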
